A study of Mus musculus with 8 samples.

Results

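The 45 genes whose names begin with Psma, Psmb, Psmc, Psmd or Psme, of 32285 genes in the count matrices, were followed in CD8+ T cells recovered from mouse pancreatic tumours. Of the 45, 5 are immunoproteasome genes (Psmb8, Psmb9, Psmb10, Psme1 and Psme2), which were set apart from the other 40. The prefix also takes in genes that are not subunits of the mature particle. Psmc3ip encodes a recombination factor, Psmd5, Psmd9 and Psmd10 encode chaperones of 19S assembly, and Psme2b is a near-identical copy of Psme2, so that reads of Psme2 and Psme2b may be split between them.

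The cells were OT-I T cells, which carry a T cell receptor against ovalbumin, from Cas9 knock-in mice. They were transduced with a lentiviral CROP-seq library of guides against metabolic genes, marked by CD90.1 (Thy1.1), and transferred into mice with orthotopic KPC_OVA tumours, a pancreatic ductal adenocarcinoma line made to express ovalbumin. From the day of transfer the recipients, by the study's methods young adults, received the blocking antibody aPD-1 or control IgG, and CD90.1+ cells were sorted from the primary tumour 7 days later. Transcripts and guides were read in the same cells by 10x Genomics 3′ sequencing, in 3 libraries after aPD-1 and 1 after IgG. All 4 libraries thus share the Cas9 knock-in, the guide library and the tumour, and differ by label in the antibody alone. The study used several mice per antibody over more than 1 experiment, and which mice or experiment went into which library is not given in the labels. The single IgG library leaves no spread within that group.

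The proteasome degrades proteins tagged with ubiquitin. Its 20S core is a barrel of alpha rings (Psma genes) around beta rings (Psmb genes), in which Psmb5, Psmb6 and Psmb7 are the proteolytic subunits, and its 19S cap of ATPases (Psmc genes) and non-ATPases (Psmd genes) recognises and unfolds the substrate. Interferons induce Psmb8, Psmb9 and Psmb10, which replace Psmb5, Psmb6 and Psmb7 in newly assembled cores, and Psme1 and Psme2, the subunits of the PA28 activator; lymphocytes also hold this immunoproteasome without interferon. It shapes the peptides shown on MHC class I. Psme3 encodes the nuclear activator PA28 gamma and Psme4 the activator PA200.

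The promoter windows of 6 members are shown because these genes moved apart between T cell states. They cover 250 bases before to 50 bases after the start of the gene on its own strand, from RefSeq on GRCm38.p6, which held a window for 38 of the 45 members. Capitals mark 4 short motifs, searched on both strands: GAAANNGAA, a core of the interferon-stimulated response element; TTCNNNGAA, the core of the gamma-activated site; TGACNNNGC, the antioxidant response element used by Nfe2l1 (NRF1), which drives proteasome genes when proteolysis is impaired; and CCAAT, bound by NF-Y.
Psmb8, chr17:34197945-34198244, plus strand: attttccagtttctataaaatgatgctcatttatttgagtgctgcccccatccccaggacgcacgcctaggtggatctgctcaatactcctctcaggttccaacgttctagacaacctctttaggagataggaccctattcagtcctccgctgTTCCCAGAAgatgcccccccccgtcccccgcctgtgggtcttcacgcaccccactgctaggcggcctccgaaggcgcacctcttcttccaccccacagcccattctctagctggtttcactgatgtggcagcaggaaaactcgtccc
Psmb9, chr17:34187281-34187580, minus strand: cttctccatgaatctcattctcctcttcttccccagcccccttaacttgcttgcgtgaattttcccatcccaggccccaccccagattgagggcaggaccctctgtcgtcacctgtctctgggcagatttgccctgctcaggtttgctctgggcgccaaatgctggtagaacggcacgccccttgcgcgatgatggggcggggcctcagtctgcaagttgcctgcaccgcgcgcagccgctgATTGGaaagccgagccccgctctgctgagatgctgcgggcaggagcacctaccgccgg
Psmb10, chr8:105938343-105938642, minus strand: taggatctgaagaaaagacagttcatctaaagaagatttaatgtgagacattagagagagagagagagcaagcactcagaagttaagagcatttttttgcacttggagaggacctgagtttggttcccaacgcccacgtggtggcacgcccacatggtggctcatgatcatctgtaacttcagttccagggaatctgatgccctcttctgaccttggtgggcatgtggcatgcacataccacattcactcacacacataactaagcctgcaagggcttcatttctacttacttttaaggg
Psme1, chr14:55578244-55578543, plus strand: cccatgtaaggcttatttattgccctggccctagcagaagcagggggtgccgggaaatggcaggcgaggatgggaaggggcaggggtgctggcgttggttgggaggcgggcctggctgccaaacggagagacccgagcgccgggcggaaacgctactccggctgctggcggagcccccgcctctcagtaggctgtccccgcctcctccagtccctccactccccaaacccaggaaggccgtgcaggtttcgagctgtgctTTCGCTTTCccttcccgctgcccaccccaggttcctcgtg
Psmb5, chr14:54617946-54618245, minus strand: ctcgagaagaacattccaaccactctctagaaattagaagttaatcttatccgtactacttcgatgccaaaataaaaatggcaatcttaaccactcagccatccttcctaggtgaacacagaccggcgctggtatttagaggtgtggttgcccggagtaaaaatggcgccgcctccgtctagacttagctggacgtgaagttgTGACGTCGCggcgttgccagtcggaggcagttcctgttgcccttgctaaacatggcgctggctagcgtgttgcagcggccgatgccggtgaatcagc
Psme3, chr11:101315963-101316262, plus strand: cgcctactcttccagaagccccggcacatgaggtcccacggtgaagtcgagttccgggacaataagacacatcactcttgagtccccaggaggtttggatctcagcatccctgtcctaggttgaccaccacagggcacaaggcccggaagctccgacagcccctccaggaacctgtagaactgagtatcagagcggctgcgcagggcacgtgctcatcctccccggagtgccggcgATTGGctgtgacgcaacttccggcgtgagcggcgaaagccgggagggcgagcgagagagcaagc
TTCNNNGAA was found in the Psmb8 window and GAAANNGAA, read on the other strand, in that of Psme1, while Psmb10 held none of the 4 motifs. Psmb5 held TGACNNNGC, and Psmb9 and Psme3 held CCAAT. GAAANNGAA was present in 6 of 41 member windows (14.6%) and in 8.56% of all 32851 promoter windows. The shares were 4.88% and 8.3% for TTCNNNGAA, 14.6% and 12.4% for TGACNNNGC, and 36.6% and 37.4% for CCAAT. A match describes letters in the window and was not tested as a binding site.

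After filtering, 23059 cells with exactly 1 guide remained, 2535, 2597 and 6432 in aPD-1 libraries 1 to 3 and 11495 in IgG, with median depths of 6329 (IgG) to 16829 (aPD-1 library 1) unique molecular identifiers (UMIs) per cell. Pairs of libraries shared 3 to 18 of the retained cell barcodes. Summed T cell markers took 5825 to 6377 counts per 1e6 UMIs (CPM) in each library. Summed markers of B or plasma cells lay at 55.6 to 196 CPM, with Ms4a1 at 0 in the aPD-1 libraries. Of this list, Igkc was at 4.90, 5.06 and 127 CPM in aPD-1 libraries 1 to 3 and 2.70 CPM in IgG. Jchain was at 0.0819, 0.145 and 11.7 CPM in aPD-1 libraries 1 to 3 and 0.0487 CPM in IgG. Both were thus highest in aPD-1 library 3, whereas Ighm and Cd79b were highest in IgG. Summed markers of myeloid cells, tumour epithelium and stroma reached at most 21.6 CPM. aPD-1 libraries 1 and 2 carry 1 library name with numbered endings, whereas aPD-1 library 3 and IgG have names of their own, and the labels name no batch.

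Clustering without the 45 genes gave 8 states. Those named from marker genes were precursor exhausted-like cells (Ccr7 and Tcf7, 1852 cells), effector memory-like cells (684 cells), interferon response-like cells (103 cells), G2/M-like cells (1884 cells) and replication histone-like cells (7055 cells). The remaining states are called by their leading gene. Gzmc-led cells (8159) expressed Gzmc, Spp1 and Prf1, and Xcl1-led cells (3001) expressed Xcl1, Ifng and Ccl3. A Gm42418-led cluster of low depth (321 cells) stands apart and is described last. The interferon response-like state rests on 14, 11 and 34 cells in the aPD-1 libraries and 44 in IgG.

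Together the members took 0.926% ± 0.0254 of all UMIs (SD, n = 4 libraries). The values were 0.916%, 0.963% and 0.906% in aPD-1 libraries 1 to 3 and 0.921% in IgG. Of the 45 genes, 43 passed the filter on low counts. Psma8 and Psmb11, subunits of testis and of thymic epithelium, did not, with 0 UMIs in aPD-1 libraries 1 and 2 and 1 to 3 UMIs in each of the others. The immunoproteasome genes held 1990.2, 2129.7 and 2365 CPM in aPD-1 libraries 1 to 3 and 2292 CPM in IgG, and the other members 7166, 7503 and 6691 CPM in aPD-1 libraries 1 to 3 and 6917 CPM in IgG.

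The proportion of immunoproteasome transcripts among the catalytic subunits (Psmb8, Psmb9 and Psmb10 of all Psmb5 to Psmb10 UMIs) was 62.5% ± 3.02 (SD, n = 4 libraries) over all cells. It was lowest in Xcl1-led cells, at 51.8%, 51.5% and 56.2% in aPD-1 libraries 1 to 3 and 53.3% in IgG, a mean of 53.2% ± 2.16 (SD, n = 4 libraries). It was highest in interferon response-like cells, at 72.3%, 81.3% and 78.5% in aPD-1 libraries 1 to 3 and 77.7% in IgG, a mean of 77.4% ± 3.75 (SD, n = 4 libraries). The values of these states overlapped neither with each other nor with those of another state, the Gm42418-led cluster aside. Between them lay effector memory-like cells with 69.8% ± 1.82 (SD, n = 4 libraries), precursor exhausted-like cells with 66.7% ± 3.59 (SD, n = 4 libraries), Gzmc-led cells with 64.8% ± 4.10 (SD, n = 4 libraries), G2/M-like cells with 63.8% ± 3.22 (SD, n = 4 libraries) and replication histone-like cells with 62.4% ± 2.32 (SD, n = 4 libraries). Neighbours in this order of 5 states differed by less than their spread between libraries, although within each library effector memory-like cells were above precursor exhausted-like cells and these above Gzmc-led cells. The proportion was compared between states and not read as a ratio of proteins, since the capture of 3′ ends can differ between genes.

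**Figure D1:**
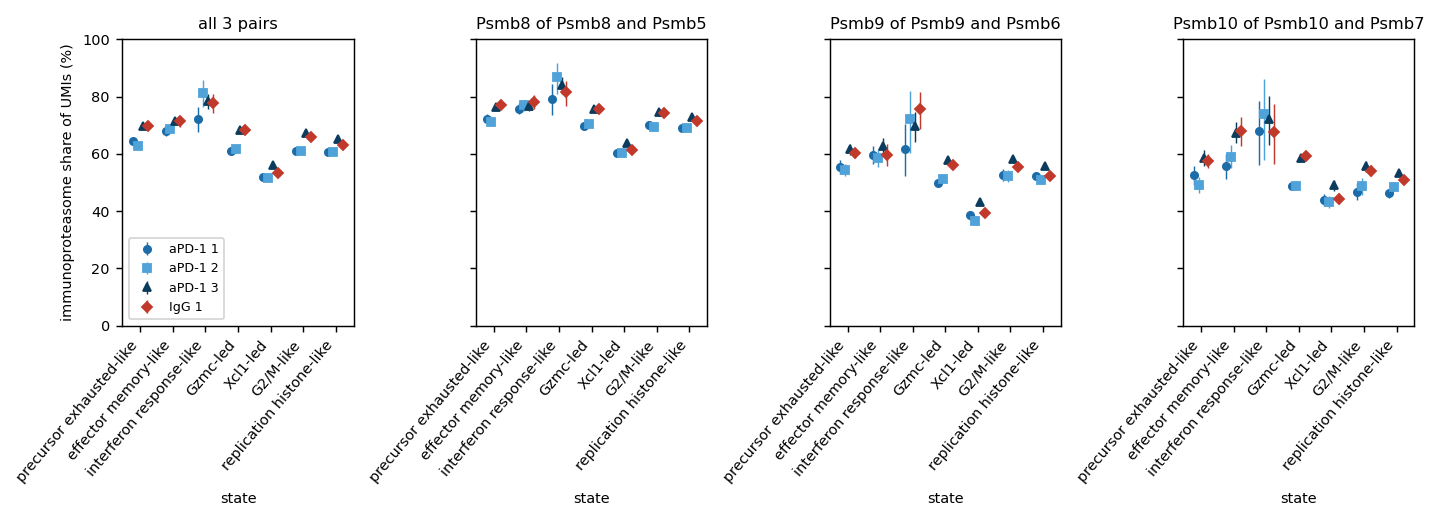
Immunoproteasome share of catalytic subunit UMIs (%) by state (x axis), for the 3 pairs together and for each pair. Points are libraries and bars are exact 95% binomial intervals, which cover counting error only. Over the 3 pairs, Xcl1-led cells lay between 51.5% and 56.2% and interferon response-like cells between 72.3% and 81.3%.

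By its mean, and with the Gm42418-led cluster aside, each replaced pair was lowest in Xcl1-led and highest in interferon response-like cells. Psmb9 of Psmb9 and Psmb6 was 39.4% ± 2.80 (SD, n = 4 libraries) in Xcl1-led cells and 69.8% ± 5.91 (SD, n = 4 libraries) in interferon response-like cells. Psmb8 of Psmb8 and Psmb5 was 61.5% ± 1.75 (SD, n = 4 libraries) and 83.0% ± 3.33 (SD, n = 4 libraries), and Psmb10 of Psmb10 and Psmb7 was 45.1% ± 2.65 (SD, n = 4 libraries) and 70.4% ± 3.13 (SD, n = 4 libraries). Over all cells the proportion was 60.0%, 60.0% and 66.0% in aPD-1 libraries 1 to 3 and 64.2% in IgG, so that aPD-1 libraries 1 and 2 were lower than aPD-1 library 3 and IgG. The same split was present within each state other than interferon response-like cells.

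Each state was compared with precursor exhausted-like cells on UMIs summed per state and library, with edgeR's quasi-likelihood test and a Benjamini-Hochberg adjusted p of 0.05 as the threshold. Because the states were built from other genes of the same cells, the p-values measure the spread between libraries given these states, and the members are not an independent readout of them. In interferon response-like cells the 5 immunoproteasome genes rose and the constitutive catalytic subunits did not pass the test. Psmb9, the subunit that replaces Psmb6, was at 444, 488 and 549 CPM in aPD-1 libraries 1 to 3 and 609 CPM in IgG, against 297, 322, 353 and 347 CPM in precursor exhausted-like cells. The groups did not overlap, and the log2 fold change was 0.59 ± 0.066 (SE), adjusted p = 7.17e-08. Psmb8, which replaces Psmb5, was at 1079.8, 1380.3, 1302 and 1154 CPM against 743, 801, 870.0 and 888 CPM, a log2 fold change of 0.47 ± 0.052 (SE), adjusted p = 4.67e-08. Psmb10, which replaces Psmb7, was at 294, 291, 211 and 240.3 against 151, 155, 148 and 147 CPM, a change of 0.63 ± 0.12 (SE), adjusted p = 0.00042. In both, all 4 interferon response-like values exceeded all 4 precursor values.

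The PA28 subunits also rose, Psme1 by 0.29 ± 0.058 (SE), adjusted p = 0.000818, and Psme2 by 0.44 ± 0.086 (SE), adjusted p = 0.000615 on the log2 scale. Psme1 ranged from 702 to 770.0 CPM against 495 to 658 CPM, and Psme2 from 518 to 639 against 367 to 429 CPM, without overlap between the states. The call of Psme2 was lost without IgG (0.30) and that of Psme1 with nothing regressed out before clustering (0.21). Among the other members only Psme2b rose, with 1.64 (adjusted p = 0.00053), on 1 to 10 UMIs per library, and its reads may belong to Psme2. Psma6, an alpha ring subunit, fell by 0.58 on the log2 scale (adjusted p = 0.00703) and Psmb2, a beta ring subunit, by 0.33 (adjusted p = 0.0393). Neither call held throughout. That of Psma6 was lost without aPD-1 library 1 (-0.50). That of Psmb2 was lost without aPD-1 library 1 (-0.31), 2 (-0.25) or 3 (-0.40), with DESeq2, with RLE scaling, at resolution 0.5 and with cells thinned to 2000 UMIs. Both, and that of Psme2b, were lost with nothing regressed out. Psmb5 had -0.25 (adjusted p = 0.19), Psmb6 -0.12 (adjusted p = 0.676) and Psmb7 -0.30 (adjusted p = 0.276). Of 43 members tested 6 were higher, where 4.31% of all genes were, and 2 were lower, where 3.68% were. The median log2 fold change was 0.47 over the immunoproteasome genes, -0.10 over the other members and -0.12 over all genes tested. With cells thinned to 2000 UMIs each, 2 members passed as higher, and with at least 5 guide UMIs the state was left with 1 library and none passed, where Psmb10 (-0.14) and Psme2 (-0.018) changed sign.

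Xcl1-led cells, whose leading genes include Ifng and the chemokines Ccl3 and Ccl4, had more transcript of most subunits and less of the immunoproteasome's proteolytic ones. Of 43 members 31 were higher, where 27.0% of all genes were, and 4 were lower, where 28.8% were. Those that fell were Psmb8, Psmb9, Psmb10 and the chaperone gene Psmd10. Psmb9 was at 168, 169 and 223 CPM in aPD-1 libraries 1 to 3 and 186 CPM in IgG, below each of the values in precursor exhausted-like cells (297, 322, 353 and 347 CPM), with a log2 fold change of -0.76 ± 0.050 (SE), adjusted p = 1.12e-13. Psmb8 was at 581, 629, 715 and 685 against 743, 801, 870.0 and 888 CPM, a change of -0.28 ± 0.044 (SE), adjusted p = 2.93e-06. Each library was lower, and the groups did not overlap. Psmb10 ranged over 116 to 136 CPM, below its 147 to 155 CPM in precursor exhausted-like cells. Its change was -0.20 ± 0.076 (SE), adjusted p = 0.0286, and it did not hold throughout, since the call was lost without aPD-1 library 2, without IgG and in cells with a nontargeting guide alone, where the value was 0.0073. Psmd10 had -0.25 (adjusted p = 0.00763), a call lost without aPD-1 library 1 (-0.22), in cells with nontargeting guides alone, with at least 5 guide UMIs, with cells thinned to 2000 UMIs and with nothing regressed out.

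The constitutive counterparts moved the other way. Psmb5 was at 385, 413, 403 and 430.0 CPM against 284, 326, 271 and 262 CPM, a log2 fold change of 0.58 ± 0.067 (SE), adjusted p = 1.31e-08. Psmb6 had 0.32 (adjusted p = 0.000102) and Psmb7 0.34 (adjusted p = 0.000176), the latter a call lost in cells with nontargeting guides alone. Every Psmb5 value in Xcl1-led cells exceeded every value in precursor exhausted-like cells, whereas Psmb6 and Psmb7 overlapped between the states but were higher in Xcl1-led cells within each library. PA28 did not follow the proteolytic subunits. Psme2 rose, from 373, 429, 415 and 367 to 537, 593, 661 and 618 CPM (0.67 ± 0.064 SE, adjusted p = 3.7e-10), and Psme1 had 0.084 (adjusted p = 0.115).

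The largest rise among the members in Xcl1-led cells was that of Psme3, the nuclear activator PA28 gamma, at 101, 97.8 and 79.2 CPM in aPD-1 libraries 1 to 3 and 80.5 CPM in IgG, against 44.9, 39.9, 25.6 and 29.4 CPM. Its log2 fold change was 1.45 ± 0.093 (SE), adjusted p = 8.87e-14. Psmd7, a 19S lid subunit, ranged over 171 to 195 CPM against 92.1 to 108 CPM (0.93, adjusted p = 6.9e-13), and Psmd12, also of the lid, over 175 to 212 against 98.6 to 136 CPM (0.88, adjusted p = 2.74e-10). By role, 7 of 7 alpha ring genes, 2 of 4 non-catalytic beta ring genes, 3 of 3 constitutive catalytic genes, 6 of 6 ATPase genes and 10 of 11 non-ATPase genes rose. Median log2 fold changes were -0.20 over the immunoproteasome genes, 0.43 over the other members and -0.042 over all genes. Summed T cell markers were lower in Xcl1-led (5414 CPM) than in precursor exhausted-like cells (6547 CPM), as were B or plasma cell markers (47.7 against 99.9 CPM), and their part in these results was not tested.

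Summed by role, the 7 alpha ring genes, which form the gate of the core, took 2634 ± 90.5 CPM in Xcl1-led and 2001 ± 286 CPM in precursor exhausted-like cells (SD, n = 4 libraries). The 6 ATPases, which unfold substrates, took 834 ± 29.6 CPM against 639 ± 87.0 CPM, and the 11 non-ATPases 1808 ± 54.5 CPM against 1333 ± 145 CPM. The 3 constitutive catalytic genes took 846 ± 24.4 CPM against 652 ± 75.1 CPM, while Psmb8, Psmb9 and Psmb10 together took 964 ± 86.8 CPM against 1305 ± 90.0 CPM. None of these 5 sums overlapped between the states over the 4 libraries. Within the alpha ring the log2 fold changes ran from 0.26 (Psma1) to 0.55 (Psma3), and within the ATPases from 0.27 (Psmc3) to 0.63 (Psmc5). Psmb1 (-0.018, adjusted p = 0.784), Psmb4 (0.14, adjusted p = 0.0631) and Psmd13 (0.15, adjusted p = 0.0993) did not pass. In interferon response-like cells the alpha ring sum was 2051 ± 139.8 CPM and the sum of Psmb8, Psmb9 and Psmb10 2011 ± 144 CPM.

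**Figure D2:**
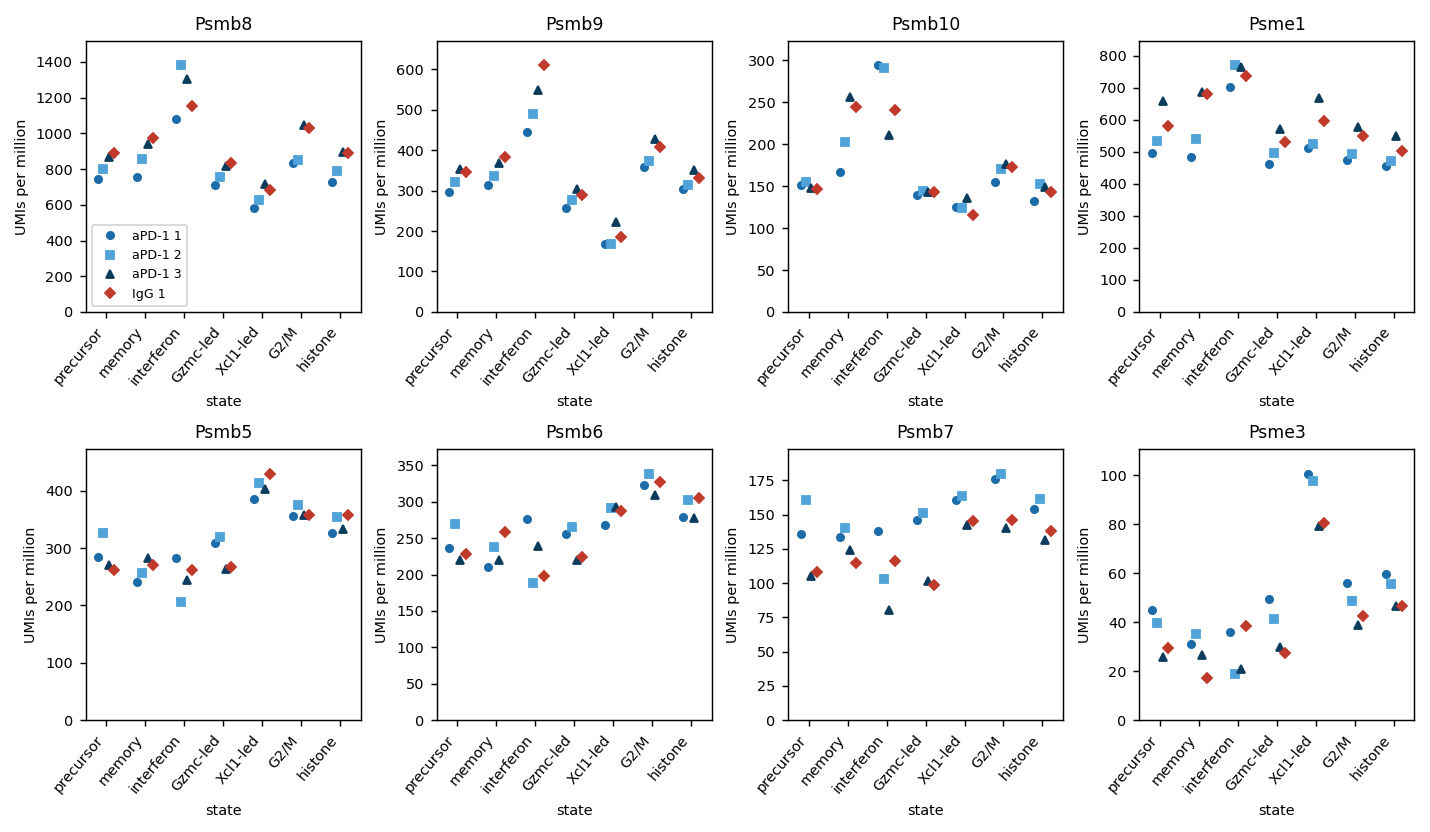
Levels of 8 members (CPM, y axis from 0) in 7 states (x axis), each point a library. Psmb8 and Psmb9 are highest in interferon response-like and lowest in Xcl1-led cells in each library, while Psmb5 and Psme3 are highest in Xcl1-led cells in each library.

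In cycling cells most members also rose, although fewer calls held in cells with nontargeting guides alone, which are fewer. In G2/M-like cells 30 of 43 members were higher, where 21.2% of all genes were, and 1 was lower, where 21.2% were. Psmc1, an ATPase of the 19S base, was at 105, 107 and 107 CPM in aPD-1 libraries 1 to 3 and 84.8 CPM in IgG, against 60.7, 65.9, 54.9 and 43.2 CPM, a log2 fold change of 0.82 ± 0.075 (SE), adjusted p = 3.85e-10. Psmd14, the deubiquitinase of the lid, rose by 0.54 ± 0.072 (SE), adjusted p = 3.81e-07, and Psmc3ip, no subunit, by 0.99 ± 0.29 (SE), adjusted p = 0.00637, a call lost without aPD-1 library 3 (0.77) and in cells with nontargeting guides alone. Psmb6 (0.41, adjusted p = 9.81e-06), Psmb5 (0.31, adjusted p = 0.000529) and Psmb7 (0.30, adjusted p = 0.00136) rose more than Psmb9 (0.21, adjusted p = 0.0012) and Psmb8 (0.15, adjusted p = 0.0072), a difference that was not tested. The call of Psmb8 was lost without aPD-1 library 3 (0.10), with no low-count filter, with members left in the clustering, and, together with that of Psmb9, with at least 5 guide UMIs, in cells with nontargeting guides alone and with nothing regressed out. That of Psmb7 was lost with at least 5 guide UMIs and with nontargeting guides alone. Psmb10 had 0.13 (adjusted p = 0.183) and Psme2 0.030 (adjusted p = 0.75). Psme1 was the member that fell, by 0.15 on the log2 scale (adjusted p = 0.00759), a call lost without aPD-1 library 3 (-0.15) and in cells with nontargeting guides alone. Medians were 0.13 over the immunoproteasome genes, 0.30 over the other members and -0.0028 over all genes.

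In replication histone-like cells 26 of 43 members were higher, where 25.8% of all genes were, and 2 were lower, where 27.2% were. Without aPD-1 library 3 the number higher was 16 and without IgG 17. Psmc3ip rose most, from 9.69, 12.2, 4.61 and 5.21 to 40.7, 43.2, 41.1 and 35.9 CPM, with 2.41 ± 0.23 (SE), adjusted p = 6.03e-10. Psme3 (0.57, adjusted p = 6.08e-06) and Psmd1, the scaffold of the 19S base (0.46, adjusted p = 0.000167), followed. Psmb5, Psmb6 and Psmb7 rose by 0.23, 0.25 and 0.18, and the call of Psmb7 was lost without aPD-1 library 1 (0.20), without aPD-1 library 3 (0.12) or without IgG (0.13), with DESeq2 or RLE scaling, and with at least 5 guide UMIs or nontargeting guides alone. Of the immunoproteasome genes none rose and Psme1 fell by 0.23 (adjusted p = 8.05e-05), as did Psmd10 by 0.38 (adjusted p = 8.19e-05), both calls lost in cells with nontargeting guides alone. Values for Psmb8, Psmb9, Psmb10 and Psme2 were -0.040, -0.057, -0.097 and 0.00027, none past the threshold. Medians were -0.057, 0.22 and -0.036 over the same sets.

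Few members passed the test in effector memory-like and Gzmc-led cells. In effector memory-like cells 5 of 43 members were higher, where 16.0% of all genes were, and 2 were lower, where 15.4% were. Psmb10 rose alone among the immunoproteasome genes, at 167, 202 and 257 CPM in aPD-1 libraries 1 to 3 and 244 CPM in IgG against 151, 155, 148 and 147 CPM, a log2 fold change of 0.49 ± 0.082 (SE), adjusted p = 2.02e-05. All 4 memory values were the higher ones. The call was lost in cells with nontargeting guides alone (0.46), and with nothing regressed out before clustering Psme2 passed as well (0.19). Psmb8 and Psmb9 had 0.058 (adjusted p = 0.356) and 0.049 (adjusted p = 0.523), and Psme1 and Psme2 0.036 and -0.034. Psmd13 (0.26, adjusted p = 0.0178) and Psmb3 (0.24, adjusted p = 0.00263) rose, and Psmd10 (-0.35, adjusted p = 0.00828) and Psmd11 (-0.30, adjusted p = 0.00773) fell. Each of these 4 calls was lost without at least 1 library, with values from 0.19 to 0.27 where positive and from -0.31 to -0.21 where negative. The libraries were aPD-1 1 for Psmd10, aPD-1 3 for Psmb3, aPD-1 1 or 2 for Psmd11, and aPD-1 1, aPD-1 3 or IgG for Psmd13. In cells with nontargeting guides alone Psmd13 (-0.069) and Psmb3 (-0.0061) changed sign, and none of the 4 passed. The counts higher and lower were 4 and 0 without aPD-1 library 1, 5 and 1 without aPD-1 library 2, 1 and 4 without aPD-1 library 3, and 3 and 3 without IgG.

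In Gzmc-led cells, the largest state, 0 members were higher, where 12.1% of all genes were, and 2 were lower, where 12.7% were. Psmb9 was at 256, 278 and 304 CPM in aPD-1 libraries 1 to 3 and 289 CPM in IgG, lower than the precursor exhausted-like value in each library, with -0.25 ± 0.049 (SE), adjusted p = 0.000186. Psme1 had -0.16 (adjusted p = 0.00784), and this call was lost without aPD-1 library 3 (-0.15), with cells thinned to 2000 UMIs, with no low-count filter, at resolution 0.5 and in cells with nontargeting guides alone, where its value turned to 0.020 and the call of Psmb9 was lost as well (-0.23). Psmb8 (-0.11, adjusted p = 0.0752) and Psmb10 (-0.099, adjusted p = 0.377) did not pass, and Psmb5, Psmb6 and Psmb7 had -0.0025, -0.0067 and -0.065. The median over the other members was 0.014 and over all genes -0.0038. Where nothing was regressed out before clustering, 14 members were higher in Gzmc-led cells, where 14.0% of all genes were, and 14 in effector memory-like cells, where 16.8% were.

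**Figure D3:**
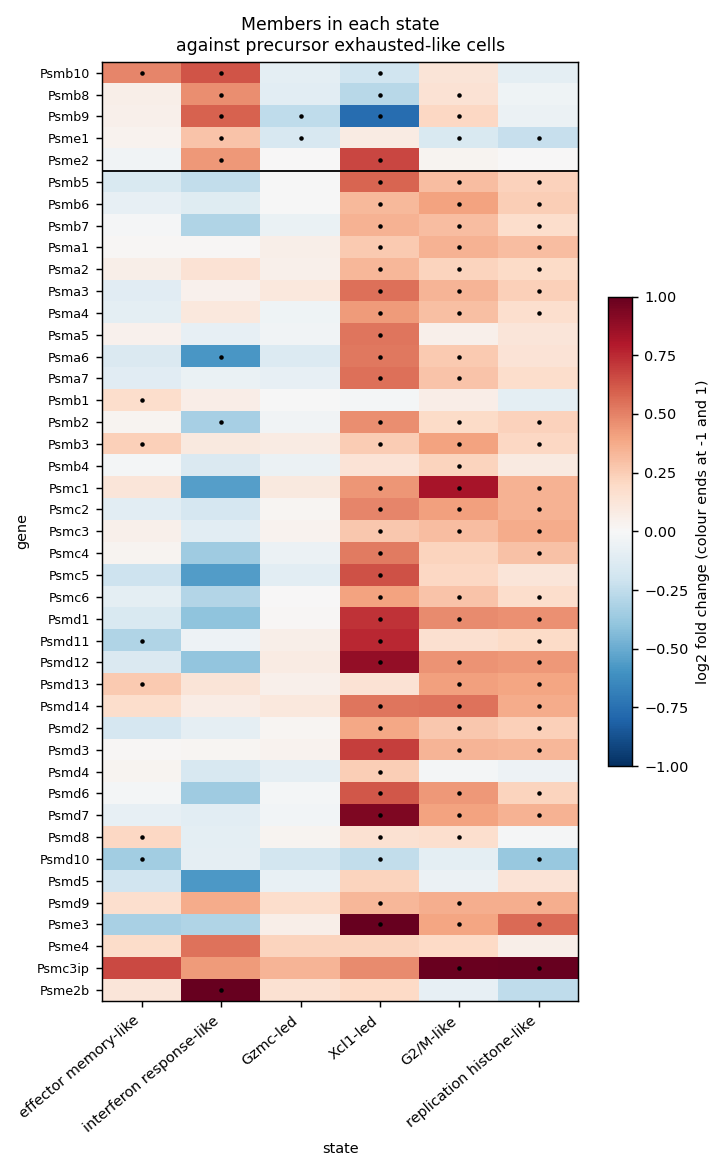
Log2 fold change of the 43 members tested (rows, immunoproteasome genes above the line) in 6 states (columns) against precursor exhausted-like cells. Dots mark an adjusted p under 0.05 by edgeR, and colour ends at -1 and 1, beyond which Psmc3ip, Psme2b and Psme3 lie. The immunoproteasome genes are red in interferon response-like cells, where most other members are pale or blue, and Psmb8, Psmb9 and Psmb10 are blue in Xcl1-led cells, where most others are red.

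Across the 6 states the members fell into few patterns. Of the 43 tested, 22 rose in Xcl1-led, G2/M-like and replication histone-like cells alike, where 8.92% of all genes did. None of these 22 is an immunoproteasome gene. Of the 43 tested, 2 (Psmd5 and Psme4) passed the test in none of the 6 states, the Gm42418-led cluster aside. These comparisons share the precursor exhausted-like sums, so that the counts are not independent of each other. Psmd10, the chaperone also known as gankyrin, fell in effector memory-like, Xcl1-led and replication histone-like cells. The first of these calls and the second were lost without aPD-1 library 1, with values of -0.31 and -0.22, and all 3 in cells with nontargeting guides alone and with cells thinned to 2000 UMIs.

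Genes that work beside the proteasome were read from fixed lists. Of 13 genes of MHC class I antigen processing, 8 were higher and 0 lower in interferon response-like cells, where 4.31% and 3.68% of all genes were. In Xcl1-led cells 4 were higher and 8 lower, where 27.0% and 28.8% of all genes were. Tapbp, which loads peptides, had 1.23 (adjusted p = 7.1e-11) and -0.46 (adjusted p = 3.15e-07) in these states, and Tap1, the peptide transporter whose gene lies head to head with Psmb9, 1.12 (adjusted p = 5.62e-10) and -0.55 (adjusted p = 1.48e-08). H2-T23 had 0.79 (adjusted p = 3.5e-08) in interferon response-like cells, and Erap1, which trims peptides, 0.59 (adjusted p = 8.77e-07) in Xcl1-led cells. Of 7 genes of interferon gamma signalling, 6 rose in interferon response-like cells (4.31% of all genes) and 6 fell in Xcl1-led cells (28.8% of all genes). Gbp4, a guanylate-binding protein gene, had 2.41 (adjusted p = 1.96e-13) and -0.72 (adjusted p = 3.78e-07). Socs1, a brake on this signalling, rose in both, with 1.83 (adjusted p = 2.23e-09) and 0.38 (adjusted p = 0.00174), the latter a call lost without aPD-1 library 3 (0.30), with at least 5 guide UMIs, with nontargeting guides alone, with nothing regressed out and with members left in the clustering. The calls of Tap1 and H2-T23 in interferon response-like cells were lost with cells thinned to 2000 UMIs, as was that of Gbp4 in Xcl1-led cells with nontargeting guides alone.

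The 6 proteasome assembly factors tested rose in Xcl1-led cells, where 27.0% of all genes did, among them Psmg2 (0.93, adjusted p = 4.21e-10) and Psmg1 (0.77, adjusted p = 3.97e-06). In interferon response-like cells none of them passed the test. A list of 7 genes of proteasome transcription joined the NRF1 pathway with Nfe2l2 and the NF-Y genes Nfya, Nfyb and Nfyc. In Xcl1-led cells 4 were higher (Ddi2, Nfe2l1, Nfyb and Nfyc) and 1 lower (Ngly1), where 27.0% and 28.8% of all genes were. Nfyc had 0.41 (adjusted p = 0.00427) and Nfe2l1, which encodes NRF1, 0.38 (adjusted p = 0.00048). The call of Nfyc was lost without aPD-1 library 3 (0.33), and those of both with at least 5 guide UMIs, with nontargeting guides alone and with cells thinned to 2000 UMIs. Uchl5 (0.63, adjusted p = 8.89e-06) and Usp14 (0.62, adjusted p = 2.88e-07), deubiquitinases bound to the 19S cap, rose, and the ubiquitin gene Ubb (-0.20, adjusted p = 0.000199) fell. Adrm1, a ubiquitin receptor of the cap, had 0.68 (adjusted p = 3.41e-08). In G2/M-like cells Adrm1 (0.44, adjusted p = 0.000135) and Uchl5 (0.50, adjusted p = 0.000536) rose and Ubb fell by 0.64 (adjusted p = 6.86e-13).

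aPD-1 was compared with IgG on 1 sum per library, which pools the states. Xcl1-led cells made up 17.9%, 18.7% and 12.1% of aPD-1 libraries 1 to 3 and 11.2% of IgG. Gzmc-led cells made up 32.9%, 31.7% and 43.7%, and 32.1% of IgG. Replication histone-like cells made up 28.6%, 28.2% and 24.6%, and 34.9% of IgG. The part of these shares in the library values was not tested. None of the 43 members passed the test, and none of 13810 genes did (0.0%), with 282 genes and 0 members at an unadjusted p under 0.05 and 5 genes called by DESeq2, no member among them. Psmb8 was at 709.7, 759 and 856 CPM in aPD-1 libraries 1 to 3 and 866 CPM in IgG, so that the IgG value lay above the 3 others, and its log2 fold change (aPD-1 over IgG) was -0.15 ± 0.15 (SE), adjusted p = 0.987. Psmb9 was at 270.5, 283 and 324 CPM in aPD-1 libraries 1 to 3 and 313 CPM in IgG and Psmb10 at 138, 148 and 149.9 CPM in aPD-1 libraries 1 to 3 and 144 CPM in IgG, with IgG inside the range of the aPD-1 libraries in both. Changes were -0.086 ± 0.14 and 0.029 ± 0.13 (SE). For Psmb7 the value was 0.19 ± 0.20 with 152, 159 and 119.8 CPM in aPD-1 libraries 1 to 3 and 127 CPM in IgG, where IgG lay between aPD-1 library 3 and the others. The median over the immunoproteasome genes was -0.025, over the other members 0.088 and over all genes 0.0080. A library-pair term was also fitted, which set aPD-1 library 3 with IgG and the other aPD-1 libraries together. This pairing was assumed, since the labels name no batch and aPD-1 library 3 and IgG have separate names. With it the median over the immunoproteasome genes was 0.049 and over the other members -0.044. Leaving out 1 aPD-1 library at a time, without that term, gave -0.11 to 0.045 and 0.023 to 0.15 for these medians.

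The libraries differed among themselves in a pattern that did not follow the antibody. Of the 43 members, 27 were higher in aPD-1 libraries 1 and 2 than in both aPD-1 library 3 and IgG, all of them outside the immunoproteasome set, and 7 were lower, among them Psmb8, Psmb9 and Psme1. Of all genes above 1 CPM in each library, 30.9% were higher and 37.1% lower in the same way. Of these, chosen after their values were seen, Psma6, an alpha ring subunit, was at 183, 191 and 148 CPM in aPD-1 libraries 1 to 3 and 151 CPM in IgG, and Psme3 at 60.4, 56.1 and 42.1 CPM in aPD-1 libraries 1 to 3 and 43.8 CPM in IgG. The 2 libraries with the shared name were thus close to each other and apart from the rest. Between aPD-1 library 3 and IgG the log2 ratios of the members ran from -0.19 to 0.19, with a median of -0.028, and this pair has no replicates. Without aPD-1 library 3, 6 members passed the test, where 24.9% of all genes did. Psme3, Psmc1, Psma6, Psmb7 and Psmd9 were then higher and Psme2b lower, and library and antibody cannot be told apart in that comparison. With the assumed library pair as a term the antibody effect rests on aPD-1 library 3 against IgG, and its spread on aPD-1 libraries 1 and 2 alone.

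**Figure D4:**
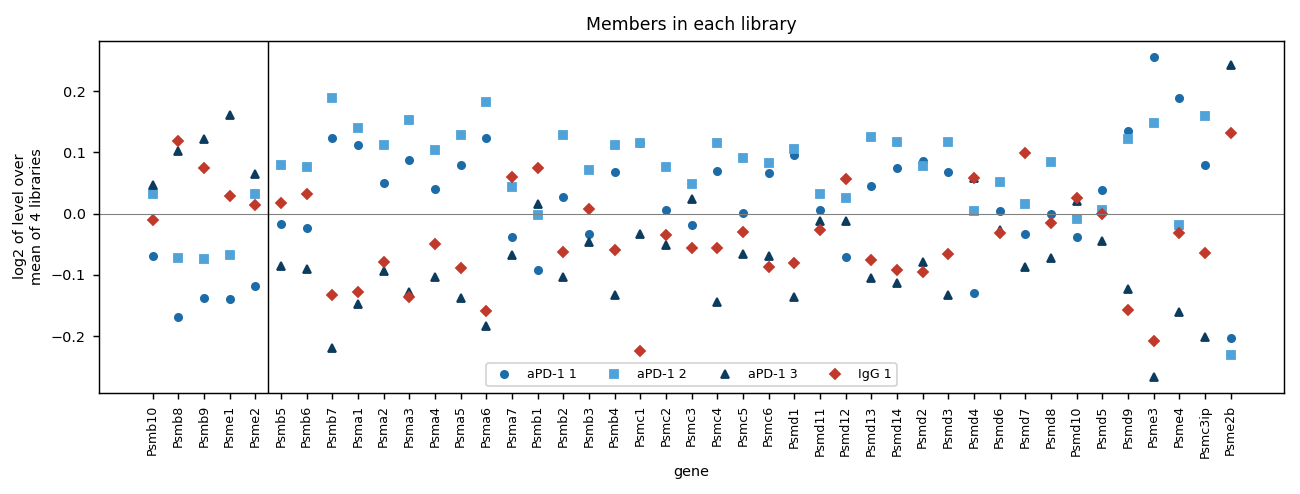
Level of each of the 43 members in each library, as log2 of its CPM over the mean of the 4 libraries (y axis), immunoproteasome genes left of the line. For most other members aPD-1 libraries 1 and 2 lie above aPD-1 library 3 and IgG, while for Psmb8, Psmb9 and Psme1 they lie below.

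Whether the difference between aPD-1 and IgG itself differed between states was tested against that in precursor exhausted-like cells. No member passed in any of 6 states, and among all genes 0.0547% passed in G2/M-like cells, 0.00912% in interferon response-like cells and 0.0% in each of the others. Median differences over the 43 members were -0.23 in Xcl1-led, -0.20 in replication histone-like, -0.16 in G2/M-like, -0.23 in effector memory-like, -0.26 in interferon response-like and -0.059 in Gzmc-led cells, where the medians of all genes lay between -0.0061 and 0.030. With nothing regressed out before clustering they were -0.052 in Xcl1-led, -0.035 in replication histone-like, -0.039 in G2/M-like, -0.039 in Gzmc-led and -0.16 in interferon response-like cells. Without aPD-1 library 2 they were -0.11 in interferon response-like, -0.14 in effector memory-like, -0.096 in G2/M-like and -0.033 in Gzmc-led cells, and without aPD-1 library 3 the median was -0.40 in interferon response-like cells. These 6 comparisons share the precursor exhausted-like sums. Without aPD-1 library 3, the difference aPD-1 minus IgG was below that in precursor exhausted-like cells for 8 members in replication histone-like cells, where 5.94% of all genes passed, 5 in Xcl1-led cells (3.01%), 1 in G2/M-like cells (2.12%), 1 in effector memory-like cells (0.25%), and 0 in Gzmc-led (0.297%) and interferon response-like cells (0.0278%). Psmd1 and Psmc4 were among the 5 in Xcl1-led cells.

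Each knockout was compared with nontargeting guides (sgNT) in the aPD-1 libraries, to ask whether loss of a metabolic gene moved the members. Over 82 targets and 43 members, none of 3526 tests passed, where 0.0539% of all tests did. At an unadjusted p under 0.05 there were 111 member tests (3.15%), against 3.88% over all genes, and DESeq2 also called no member. Of results chosen after their values were seen, the smallest unadjusted p was that of Psmb7 after loss of Agps (-0.50 ± 0.14 (SE) on the log2 scale, adjusted p = 1), and the smallest adjusted p that of Psmc4 after loss of Dhodh (-1.69 ± 0.51 (SE), adjusted p = 0.116). For Psmb8 the values ran from -0.17 to 0.21 over the targets, with a median standard error of 0.092. The median standard error over all member tests was 0.13.

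**Figure D5:**
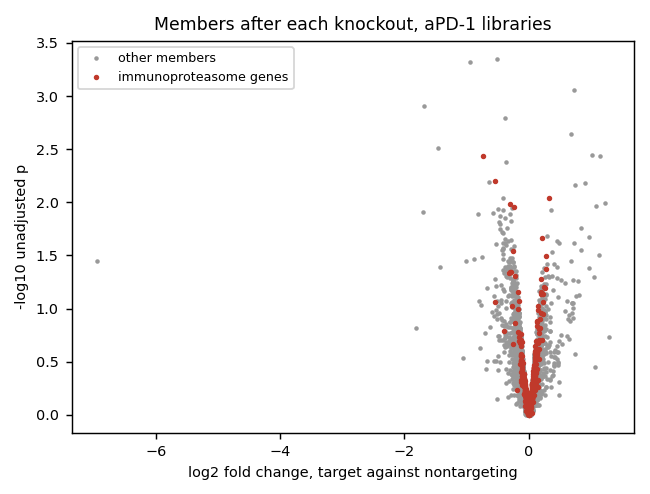
Members after each knockout in the aPD-1 libraries, log2 fold change against nontargeting guides (x axis) and -log10 of the unadjusted p (y axis), each point 1 member and 1 target. None of the 3526 points passed the adjusted threshold, and the point farthest left is Psmc3ip in cells with Dhodh guides (-6.95 ± 3.28 SE, adjusted p = 0.515).

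The Gm42418-led cluster had a median depth of 0.395 times that of its libraries, and only aPD-1 library 3 and IgG held enough of its cells for a sum. There 4 members were higher, where 18.9% of all genes were, and 32 were lower, where 24.8% were. Psmb2 went from 246 to 60.6 CPM in aPD-1 library 3 and from 222 to 45.4 CPM in IgG (-2.61, adjusted p = 1.22e-16). Psmd10 (-2.09, adjusted p = 1.97e-09) and Psma5 (-1.72, adjusted p = 4.78e-11) followed, and the 5 immunoproteasome genes fell by 0.79 (Psmb10) to 1.51 (Psme1). The activators Psme3 (0.78, adjusted p = 0.00107) and Psme4 (0.67, adjusted p = 0.00565) were higher, as were Psmc1 (0.66, adjusted p = 0.000124) and Psme2b (0.92, adjusted p = 0.0136). With 1 library of the 2 left, the calls of Psme3 (0.49) and Psme4 (0.44) were lost without aPD-1 library 3 and that of Psme2b (0.65) without IgG, and in cells with nontargeting guides alone none of the 4 rises passed. Whether the low depth of these cells has a part in the values was not tested.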

How the data were processed

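Single-cell RNA and guide libraries of tumour CD8+ T cells were analysed, 3 after aPD-1 and 1 after IgG. The deposited counts were whole UMI counts per gene and guide and per cell, which the authors obtained from Cell Ranger 3.1.0 on mm10 (submitters' notes, which also name Seurat and R 3.6.3), neither normalised nor pooled. No annotation release is named. Cell-calling and alignment had been done before deposit.

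Cells with UMIs of exactly 1 guide were kept if their UMI count lay within 3 median absolute deviations and mitochondrial UMIs were at most 10%. No doublet caller was run. The single-guide rule and the upper UMI limit remove some doublets, and cells with 10 or more UMIs of other cell types' markers (89 cells) were left out in an alternative. Median depth was 6329 to 16829 UMIs per cell. Over the cells of a library, a count of 0 allows a share of 0.0261% to 0.118% of cells with a UMI, which does not limit the cells expressing a gene. Intervals and floors cover counting error only.

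Cells were integrated and clustered after the study's methods (Seurat 5.3.0, 15 components, resolution 0.3, with UMI count, mitochondrial share and cell cycle difference regressed out) and named from fixed markers. Each library was integrated on its own, whereas the study integrated batches. The 45 members, guide targets, mitochondrial genes, T cell receptor segments, chromosome Y genes, Xist and Tsix were left out of the genes used for clustering. Raw UMIs were summed per library, per state and library, or per target and aPD-1 library (at least 10 cells) and tested with edgeR 4.0.16 (TMM, low-count filter, quasi-likelihood, Benjamini-Hochberg over all genes), with library as a block for states and targets. The target fit used 1 dispersion for all genes. CPM are a gene's UMIs scaled to the sum's total. They come from 3′ tags and were not divided by length. Scripts were tested on simulated data. R 4.3.3 and Python 3.11.15 were used, with DESeq2 1.42.0 as an alternative. Libraries are separate samples by label, and where nothing says that mice differ between them the p-values measure only the spread between libraries.

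The members and gene lists were chosen with earlier results of these data known. Named in each comparison were the 5 immunoproteasome genes, Psmb5, Psmb6 and Psmb7, the 3 members with the largest rise and the 3 with the largest fall past the threshold, and up to 4 genes of each pathway list. Further members named for their role or pattern were chosen after their values were seen. Results for some items are not reported here.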

Additional observations from a re-analysis of the deposited data

How the results depend on the processing

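No paired analysis was possible because aPD-1 and IgG share fewer than 2 replicate numbers, while states and targets were fitted with library as a block. The cause was not tested for any change given here. For aPD-1 against IgG (0 genes, 0 members), DESeq2 called 5 genes. The library pair as a term, a pairing assumed because the labels name no batch, called 283 genes in the same comparison. Leaving out 1 library, without that term, gave 0 to 3316 genes and 0 to 6 members. For treatment by state it gave 0 to 1, 0 to 1, 0 to 8 and 0 to 5 members in effector memory-like, G2/M-like, replication histone-like and Xcl1-led cells. In cells with nontargeting guides alone, which are fewer, members higher and lower were 0 and 0 in effector memory-like, 14 and 0 in G2/M-like, 12 and 0 in replication histone-like, and 0 and 19 in Gm42418-led cells, with 0 lower in Gzmc-led and 2 lower in Xcl1-led cells. There Psmd13 (-0.069) and Psmb3 (-0.0061) in effector memory-like, Psme1 (0.020) in Gzmc-led and Psmb10 (0.0073) in Xcl1-led cells turned sign on the log2 scale. With at least 5 guide UMIs, 1 member was higher in effector memory-like, 2 in Gm42418-led and 0 in interferon response-like cells, where 0 were lower and Psmb10 (-0.14) and Psme2 (-0.018) turned sign. Thinned to 2000 UMIs, counts higher and lower were 3 and 1 in effector memory-like and 2 and 1 in interferon response-like cells, with 2 higher in Gm42418-led and 1 lower in Gzmc-led cells, and the immunoproteasome share was 72.2% in effector memory-like and 65.0% in Gm42418-led cells. With nothing regressed out, counts higher and lower were 14 and 1 in effector memory-like and 14 and 4 in Gzmc-led cells, with 0 lower in interferon response-like and 6 lower in replication histone-like cells, and Psme2 turned to 0.19 in effector memory-like cells. At resolution 0.5, 1 was higher and 1 lower in Gzmc-led and 1 lower in interferon response-like cells. With at least 50 cells per sum 1 was higher in Gzmc-led cells, and with members left in the clustering 5 were lower in replication histone-like cells. DESeq2 and RLE scaling each gave 4 lower in Gzmc-led and 1 lower in interferon response-like cells, and no low-count filter gave 1 lower in Gzmc-led and 5 lower in effector memory-like cells. Leaving out 1 library at a time gave 1 to 5 higher and 0 to 4 lower in effector memory-like, 0 to 1 lower in G2/M-like, 2 to 4 higher in Gm42418-led, 1 to 3 lower in Gzmc-led, 1 to 2 lower in interferon response-like and 16 to 27 higher in replication histone-like cells. Over the knockouts, all tests called (416) were 150 with DESeq2, 2753 with no low-count filter, 63 with at least 5 guide UMIs, 192 without cells of other types and 170 to 298 without 1 library, and members called were 0 under each of these. Of 1235 values of named genes under the alternatives, 1108 stayed on their side of the threshold, 104 fell below it and 16 rose above it. A further 7 changed sign with a call in the main fit or the alternative. Changes of sign without a call in either are counted among the 1108. Resolution 0.2, which gave no precursor exhausted-like cluster, interferon response-like cells with nontargeting guides alone, with 50 cells per sum or with members left in the clustering, Gzmc-led and effector memory-like cells with members left in the clustering (where no cluster took these names), and treatment by state in interferon response-like cells with at least 5 guide UMIs gave no value. The interferon response-like state rests on 11 to 44 cells per library and the Gm42418-led cluster on sums of 2 libraries.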

Other observations

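Genes that work beside the immunoproteasome in antigen processing were also read in the other states, as log2 fold changes against precursor exhausted-like cells. In replication histone-like cells 8 of 13 MHC class I genes were lower and 2 higher, where 27.2% and 25.8% of all genes were. H2-K1, a class I heavy chain, had -0.54 (adjusted p = 1.64e-10) and Nlrc5, the class I transactivator, -0.43 (adjusted p = 0.00035), while Psmb8 and Psmb9 did not pass there. In G2/M-like cells 4 were higher and 2 lower, where 21.2% and 21.2% of all genes were, with Nlrc5 at -0.41 (adjusted p = 0.003), a call lost without IgG (-0.31).

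In effector memory-like cells 4 of 13 MHC class I genes were higher and 3 lower, and of 7 genes of interferon gamma signalling 4 were higher and 1 lower, where 16.0% of all genes were higher and 15.4% lower. Ifngr1, a receptor chain for interferon gamma, had 1.40 (adjusted p = 7.33e-14), Irf1 0.91 (adjusted p = 1.54e-08) and Tapbpl, an editor of class I peptides, 0.69 (adjusted p = 2.03e-05). Psmb10 was the one immunoproteasome gene called in that state. In Gzmc-led cells Ifngr1 (0.77, adjusted p = 1.47e-08) and Gbp4 (0.67, adjusted p = 2.76e-07) rose, and H2-K1 (-0.18, adjusted p = 0.00706) was the MHC class I gene that fell, a call lost without aPD-1 library 1 (-0.15) or 2 (-0.15).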
